A study of Mus musculus with 15 samples.

Results

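Atg7 and 9 further genes of the ATG8 and ATG12 conjugation system (Atg3, Atg5, Atg10, Atg12, Atg16l1, Map1lc3a, Map1lc3b, Gabarapl1 and Gabarapl2) were followed in mice whose microglia were targeted for deletion of Atg7. The 10 genes were chosen by name for their place in the pathway, with earlier results of these data known. All 10 were found among the 54532 genes of the forebrain count table and among the 32285 genes of the single-cell matrices.

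Forebrain RNA was sequenced in bulk from 7 cKO and 6 control libraries. The cKO mice carried floxed Atg7 alleles (ATG7FF), Cx3cr1CreER and 5xFAD, and the controls carried ATG7FF and 5xFAD without Cre. Sorted microglia without 5xFAD were sequenced as 1 cKO library (ATG7FF;Cx3cr1CreER, pooled from 4 forebrains) and 1 control library (ATG7FF, pooled from 3 forebrains). All mice were C57BL/6, were given 1.5 mg of tamoxifen at 2 months of age, Cre-negative controls included, and were sampled at 8 months. 5xFAD is a set of human transgenes with familial Alzheimer mutations that leads to amyloid plaques. Cx3cr1CreER is a tamoxifen-dependent Cre under the control of the fractalkine receptor locus, which is active in microglia and also in other mononuclear phagocytes. Whether every bulk library comes from its own animal is not written in the labels, and p-values measure only the spread between libraries, which may be technical.

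Autophagy wraps cytoplasm in a double membrane that fuses with lysosomes. ATG7 is an E1-like enzyme that activates a pair of ubiquitin-like modifiers. It passes ATG12 to the E2-like enzyme ATG10, which joins ATG12 to ATG5, and it passes the ATG8-type proteins (LC3 and GABARAP branches) to the E2-like enzyme ATG3, which joins them to phosphatidylethanolamine. The ATG12-ATG5 conjugate with ATG16L1 directs that lipidation to the growing membrane, where ATG8-type proteins recruit cargo receptors. In microglia, autophagy and the related lipidation of single membranes take part in the handling of engulfed material.

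The chemistry of the pathway acts on the C-terminal end of the ATG8-type proteins: ATG4 proteases cut after a glycine, and that glycine is the residue activated by ATG7. The coding ends of the 4 ATG8-type members are shown because this is the site on which ATG7 and ATG3 act. Each is the last 15 codons before the stop codon in the GENCODE M21 reference transcript (number 201 of each gene), with the last glycine codon in capitals.
Map1lc3a: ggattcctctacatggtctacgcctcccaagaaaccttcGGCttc
Map1lc3b: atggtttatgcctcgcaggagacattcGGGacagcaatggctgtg
Gabarapl1: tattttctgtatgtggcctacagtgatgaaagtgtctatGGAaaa
Gabarapl2: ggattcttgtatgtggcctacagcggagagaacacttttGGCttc
In Map1lc3b, 5 codons follow the glycine codon, against 1 codon in each of Map1lc3a, Gabarapl1 and Gabarapl2. The open reading frames hold 121 codons in Map1lc3a, 125 in Map1lc3b and 117 in each of Gabarapl1 and Gabarapl2, stop codons not counted.

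Promoters were searched for the E-box CACGTG, a palindrome that is the core of the sites bound by TFEB and its relatives, which control many lysosomal and autophagy genes. RefSeq windows of 250 bases before to 50 bases after the start (build GRCm38.p6) were at hand for 7 of the 10 members. The motif was in the windows of 3 of those 7 genes, for Atg7 at an internal start, and in 7.15% of all 32851 promoter windows. The 4 matches are shown with flanking bases, the E-box in capitals, on the plus strand, which is the strand of all 3 genes.
Atg7, chr6:114670952-114670981: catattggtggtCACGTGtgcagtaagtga
Atg3, chr16:45158723-45158752: gcctccttttgtCACGTGtcctgggagagt
Atg3, chr16:45158746-45158775: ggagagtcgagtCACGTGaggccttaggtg
Atg5, chr10:44268313-44268342: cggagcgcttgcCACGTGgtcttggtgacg
The matches of Atg3 began at offsets -94 and -71 from the RefSeq start, and that of Atg5 at offset -14. The Atg7 window is that of an internal start: the RefSeq start lies 27999 bases inside the gene, downstream of the GENCODE gene start, with the match at offset -132 from it, and 44 of its 300 bases are in annotated exons. The sequence at the 5' gene start of Atg7 was not searched here. In the other 6 windows the RefSeq start lay between 19 bases upstream (-19) and 77 bases downstream of the GENCODE start. On either strand, TGACNNNGC, the core of the antioxidant response element, was in 12.4% of all windows and in the Map1lc3b window once. GTAAACA, the forkhead motif, was in 3.65% of all windows and in no member window. These are matches of letters and not measured binding, and binding was not assayed in this study.

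Bulk libraries held 16658707 to 22355512 counts. The cKO single-cell library held 40701821 UMIs over 9840 barcodes and the control library 9314315 UMIs over 6633 barcodes, and 22 barcodes occurred in both. After filtering, 7486 cKO and 6224 control cells were in the 5 clusters called microglia-like, with medians of 4836.5 and 1391.5 UMIs per cell. All 18 microglia markers on the list, which also served to call these clusters, were measured there. Their summed level was 54240 CPM of UMIs in cKO and 61140 CPM in control microglia-like cells. The sum of 9 neuronal markers was 3.70 and 1.98 CPM. Lists of other cell types summed to 326 CPM in cKO and 329 CPM in control cells for B cells, 179 and 163 CPM for astrocytes, 117 and 116 CPM for oligodendrocytes, and 14.8 and 5.83 CPM for border macrophages. Most of the B cell sum was Ighm, at 284.9 CPM in cKO and 288.5 CPM in control cells, with Cd79b at 41.3 and 40.2 CPM. Cd79a had 1 UMI in cKO and 0 in control cells, and Ms4a1 had 0 in both. Most of the astrocyte sum was Slc1a3, at 174 and 161 CPM, while Gfap had 10 and 0 UMIs and Gja1 3 and 0. The oligodendrocyte sum was mostly Cnp, Mbp and Mag, with Mog at 4 and 1 UMIs. Most of the border macrophage sum was Mrc1, at 495 UMIs in cKO and 43 UMIs in control cells. Its ratio, cKO over control, was 2.74 (2.01 to 3.84), and it was below 20 CPM in both libraries. Ms4a7 had 35 and 1 UMIs (ratio 8.34) and Cbr2 16 and 2 (ratio 1.91). In the other direction, Pf4 had 20 and 6 UMIs (ratio 0.794) and F13a1 0 and 1. Lyve1 and Cd163 had 0 UMIs in both libraries. The part of this list in the member values was not tested. The libraries stood apart in the clustering: 79.07% of cKO cells and 4.725% of control cells were in cluster 0, led by Lyz2 and Apoe, and 2.31% of cKO cells and 93.83% of control cells were in cluster 1, led by Fos and Calr. Depth, pooling and genotype cannot be told apart between single libraries.

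In the 5xFAD forebrain, the ATG8-type genes were the most abundant members and Atg7 and Atg10 the least abundant. Levels were compared between genes as CPM (counts scaled to library size) per kilobase of the principal transcript, over all 13 libraries. Counts were per gene, and the exons of a gene together can span more bases than that transcript. For Map1lc3b they span 7517 against 2532 bases, and for Atg16l1 9628 against 3130 bases. The order of genes and the overlaps given here therefore depend on the length chosen. Gabarapl1, a GABARAP-branch ATG8 gene, had the highest level, 268 ± 9.55 CPM per kb (SD, n = 13). Map1lc3a, an LC3-branch gene, had 119 ± 17.0 CPM per kb, and its libraries overlapped those of Map1lc3b at 87.5 ± 4.20 CPM per kb. Gabarapl2 lay below these at 70.1 ± 3.65 CPM per kb, with no overlap with Map1lc3b.

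The enzymes and modifiers were all lower than the 4 ATG8-type genes. Atg3, the E2 of lipidation, had 19.9 ± 1.11 CPM per kb and overlapped Atg16l1 at 19.3 ± 1.01 CPM per kb. Atg12, the modifier, had 13.8 ± 1.28 CPM per kb and overlapped its acceptor Atg5 at 10.5 ± 1.00 CPM per kb. The E1 gene Atg7 had 6.46 ± 0.436 CPM per kb and overlapped Atg10, the E2 of ATG12 conjugation, at 5.89 ± 0.850 CPM per kb. Other neighbours in this order did not overlap in any library.

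Microglia showed another order. The single-cell assay counts 1 tag per molecule at its 3' end, so these levels were not divided by length. Gabarapl2 was highest at 176 CPM in cKO and 152 CPM in control cells, followed by Map1lc3b at 154 CPM in cKO and 139 CPM in control cells. Gabarapl1, first in the forebrain, was ninth of 10 in control microglia at 24.2 CPM, with a 95% Poisson interval of 21.1 to 27.6 CPM that overlapped that of Atg10. Atg7 was lowest in both libraries, 17.4 CPM in cKO (16.1 to 18.7) and 15.9 CPM in control cells (13.4 to 18.7).

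**Figure D1:**
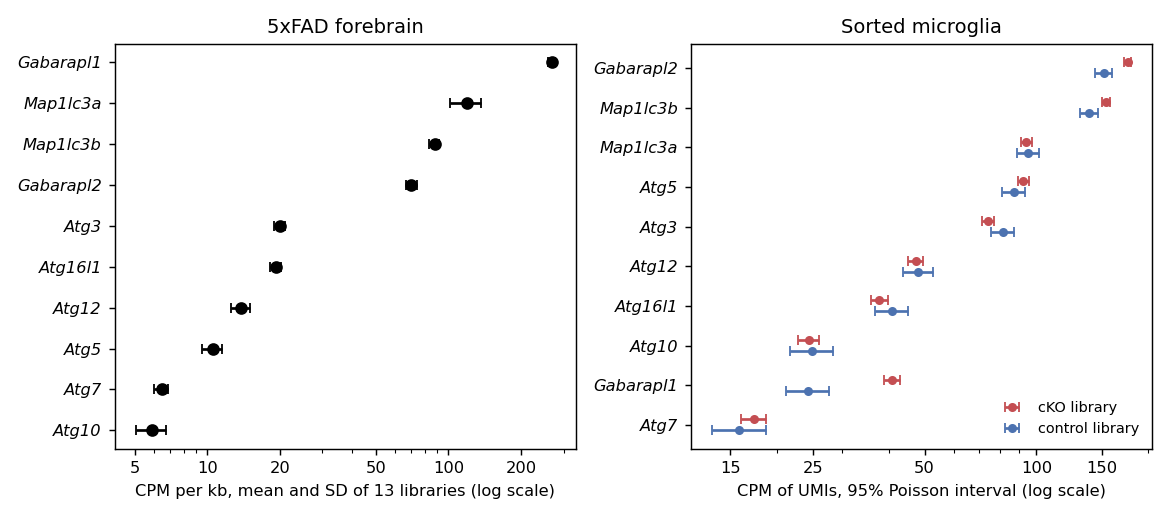
Level of each member. Left, forebrain level in CPM per kb of transcript (log axis), mean and SD of 13 libraries, where Gabarapl1 is highest at 268 CPM per kb. Right, level in microglia-like cells in CPM of UMIs (log axis) with 95% Poisson intervals, cKO library above control library for each gene, where Gabarapl2 is highest and Atg7 lowest in both libraries.

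The forebrain comparison asks whether conjugation genes differed in level between cKO and control 5xFAD mice. None of the 10 members was called: edgeR's quasi-likelihood test gave adjusted p-values of 0.655 to 0.999, and 0 of 10 members had an unadjusted p under 0.05. Over all 16956 genes tested, 0.33% were called, 0.0531% higher (9 genes) and 0.277% lower (47 genes) in cKO, and 7.71% had an unadjusted p under 0.05. DESeq2 also called 0 of 10, where it called 23 genes higher and 62 lower over all genes, with 1 member at an unadjusted p under 0.05. The share of all genes under that unadjusted level was not taken for DESeq2, so its unadjusted counts have no such reference. The 95% intervals of the fold, cKO over control, lay between 0.818 and 1.23 for the 10 members, so larger differences lay outside every interval. In bulk tissue, fewer cells of a type and less RNA per cell cannot be told apart, and the RNA of all forebrain cell types is measured together.

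Atg7 itself (ENSMUSG00000030314, chromosome 6, 114643097 to 114860614, GRCm38) did not differ beyond the spread between libraries. Its lowest, median and highest levels were 22.8, 24.9 and 25.8 CPM in cKO forebrains and 21.2, 24.1 and 27.4 CPM in control forebrains. Every cKO library lay within the range of the control libraries. The log2 difference, cKO minus control, was 0.01 (SE 0.065, adjusted p = 0.991), and the interval of the fold was 0.914 to 1.10. Its reference transcript has 19 exons, and the labels do not say which are floxed. A count over the whole gene therefore does not check the deletion, all the more in a tissue where most cells are not microglia.

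Neither E2-like enzyme was called. Atg3 (chromosome 16, 45158785 to 45188538) had 38.3, 42.4 and 43.3 CPM as lowest, median and highest values in cKO forebrains, against 37.0, 40.9 and 43.2 CPM in controls. Its log2 difference was 0.04 (SE 0.055, adjusted p = 0.867). Atg10 (chromosome 13, minus strand, 90935356 to 91223968), the least abundant member, had 7.37, 9.41 and 10.5 CPM in cKO forebrains, against 8.49, 8.96 and 12.7 CPM in controls. The groups overlapped for both genes, and 12.7 CPM was 1 control library that stood above the others. Atg10 differed by -0.06 on the log2 scale (SE 0.109, adjusted p = 0.899).

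The ATG12-ATG5-ATG16L1 complex held the largest shift relative to its error among the members, which did not pass the threshold. Atg16l1 (chromosome 1, 87755870 to 87792428), the membrane-directing partner, had 57.2, 62.2 and 65.6 CPM in cKO forebrains, against 56.4, 57.6 and 62.0 CPM in controls (lowest, median, highest). In 6 of 7 cKO libraries it was above the control median, yet the groups overlapped. Its log2 difference was 0.10 (SE 0.047, unadjusted p = 0.0573, adjusted p = 0.655), and 0.154 (adjusted p = 0.383) after a correction for GC content and length. Atg12 (chromosome 18, minus strand, 46730144 to 46741580) had 56.6, 64.5 and 70.6 CPM in cKO forebrains, against 59.7, 68.3 and 76.4 CPM in controls, a log2 difference of -0.08 (SE 0.066, adjusted p = 0.787). Atg5 (chromosome 10, 44268358 to 44364291) had 23.3, 24.6 and 26.0 CPM in cKO forebrains, against 21.4, 24.4 and 30.1 CPM in controls, a log2 difference of -0.01 (SE 0.076, adjusted p = 0.979). The cKO range of Atg5 lay inside the control range.

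Among the ATG8-type genes, Map1lc3a (chromosome 2, 155276297 to 155278073) varied most. It had 120, 128 and 184 CPM as lowest, median and highest values in cKO forebrains, against 101, 134 and 138 CPM in controls. The highest value came from 1 cKO library, and the cKO median was below the control median although the cKO mean was higher (136 ± 22.6 CPM, n = 7, against 127 ± 13.9 CPM, n = 6). Its log2 difference of 0.10 (SE 0.097, adjusted p = 0.831) was 0.01 without that library, and 0.005 with all libraries kept after a correction for GC content and length. Map1lc3b (chromosome 8, 121590361 to 121598760) had 205, 218 and 236 CPM in cKO forebrains, against 215, 219 and 244 CPM in controls, a log2 difference of -0.04 (SE 0.044, adjusted p = 0.848).

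Gabarapl1 (chromosome 6, 129533160 to 129542346) had 456, 490 and 517 CPM in cKO forebrains, against 466, 484 and 497 CPM in controls. Its log2 difference was 0.02 (SE 0.039, adjusted p = 0.913), and the interval of the fold was 0.959 to 1.07. An antisense gene, 1700101I11Rik, covers 570 bases, 28.3%, of its exons, and because no source used here gives the strand setting of the counting, reads of the pair cannot be told apart. That antisense gene was counted at 1.39 ± 0.278 CPM in cKO and 1.78 ± 0.244 CPM in control forebrains (SD, n = 7 and n = 6). Gabarapl2 (chromosome 8, 111940703 to 111953612) averaged 118 ± 7.63 CPM in cKO and 118 ± 4.49 CPM in control forebrains, a log2 difference of 0.00 (SE 0.048, adjusted p = 0.999).

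**Figure D2:**
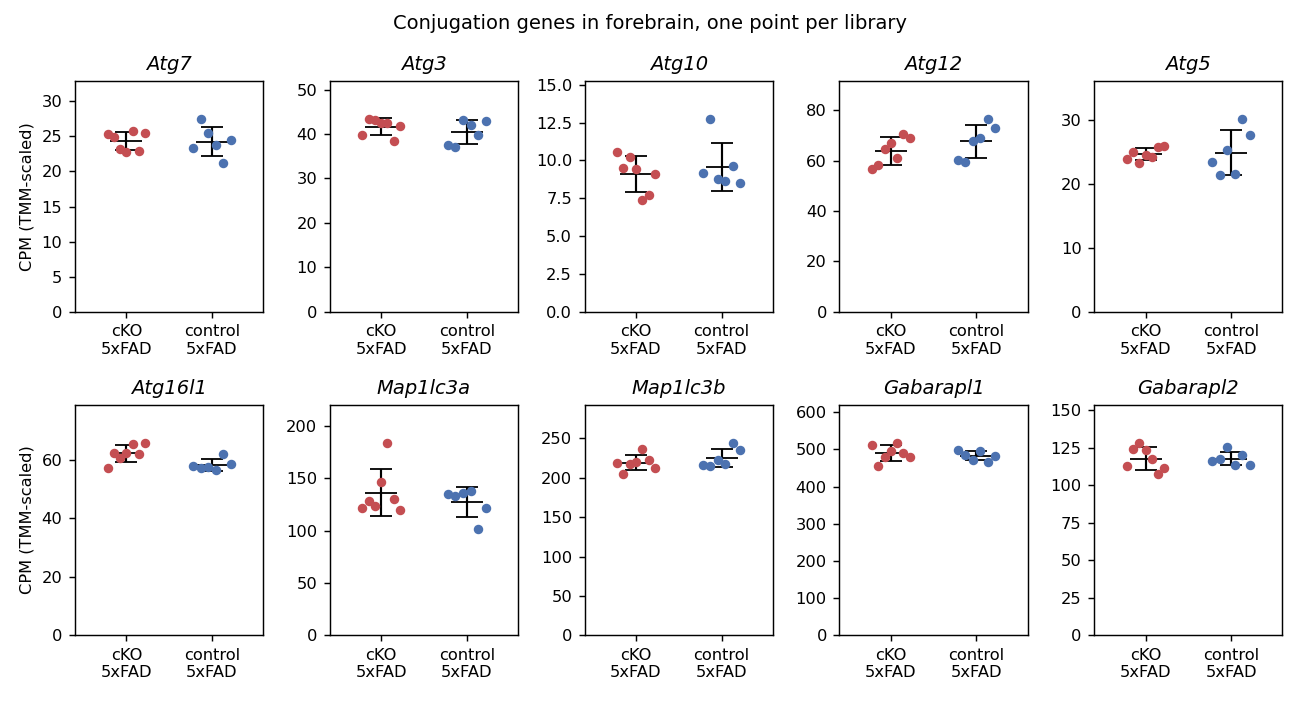
Forebrain level of each member in CPM, 1 panel per gene, with 7 cKO libraries left and 6 control libraries right; points are libraries and bars are the mean and SD. The groups overlap for all 10 members, and the high Map1lc3a point is the cKO library at 184 CPM.

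**Figure D3:**
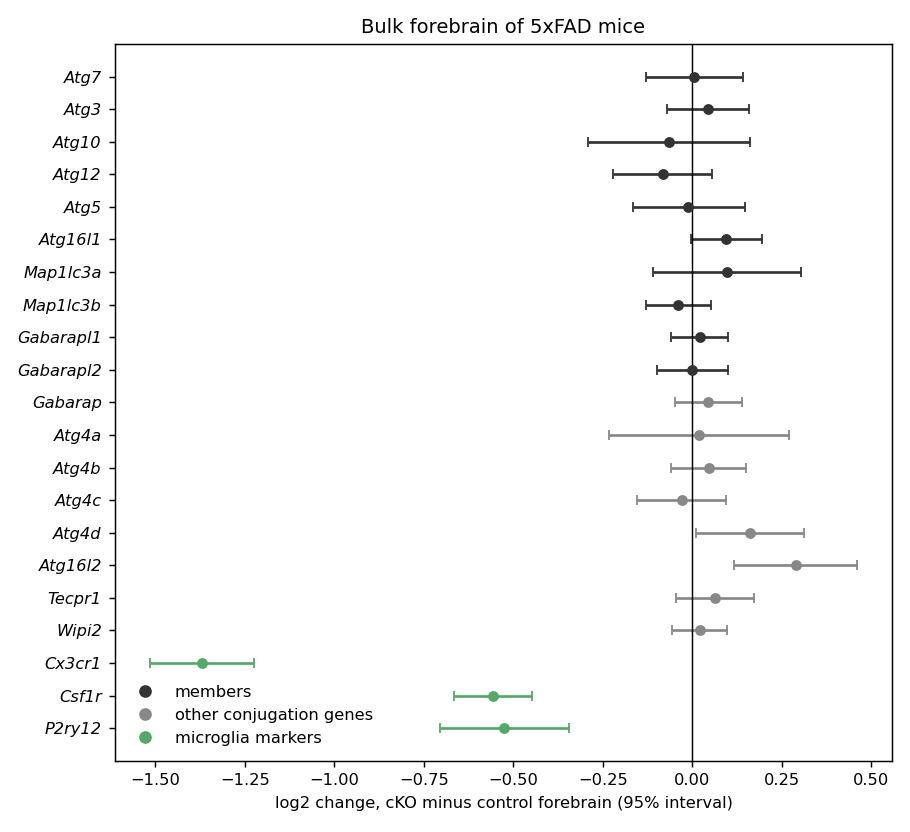
Log2 difference in forebrain level, cKO minus control, for the 10 members, 8 other conjugation genes and the microglia markers Cx3cr1, Csf1r and P2ry12, with 95% intervals from edgeR's quasi-likelihood fit. Member differences lie between -0.08 and 0.10. Cx3cr1, whose locus carries CreER in cKO mice only, is at -1.37, Csf1r at -0.557 and P2ry12 at -0.525.

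No member's cKO libraries lay wholly above or below its control libraries, which held for 0.13% and 0.313% of all genes tested. The summed level of the 10 members was 1140 to 1280 CPM (median 1180) in cKO and 1170 to 1190 CPM (median 1180) in control forebrains. The median log2 difference was 0.003 over the members, 6 above 0 and 4 below, and 0.002 over all genes tested. In the same libraries, the 18 microglia markers summed to 454 to 480 CPM in cKO and 678 to 807 CPM in control forebrains. Their log2 differences were all below 0, with a median of -0.64. Of these markers, 13 were called lower and 0 higher in cKO, against 0.277% and 0.0531% of all genes tested. Cx3cr1, the gene whose locus carries CreER, was among them at 24.4 ± 2.99 CPM in cKO and 63.1 ± 2.99 CPM in control forebrains (SD, n = 7 and n = 6; log2 difference -1.37, SE 0.070, edgeR adjusted p = 5.03e-11). Only the cKO mice carried CreER at that locus, so its level cannot stand for the list. In microglia-like cells Cx3cr1 was the single marker of the 18 past 1.5-fold, at a ratio of 0.527 (0.521 to 0.532), cKO over control. None of the 9 neuronal, 7 astrocyte or 7 oligodendrocyte markers was called in either direction. The part of these marker levels in the member values was not tested.

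The other steps of autophagy gave the same count: by edgeR and by DESeq2, 0 genes were called in each of 4 further lists. Of the other conjugation genes, 0 of 8 were called, with 2 at an unadjusted p under 0.05 in edgeR and 2 in DESeq2. The largest difference there was that of Atg16l2, a paralog of Atg16l1, at 19.0 ± 2.38 CPM in cKO and 15.6 ± 1.03 CPM in control forebrains. All 7 cKO libraries exceeded the control median, and the log2 difference was 0.29 (SE 0.083, unadjusted p = 0.00215, adjusted p = 0.283). The lowest difference was that of Atg4c, an ATG8-processing protease, at -0.03.

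Of the 21 upstream genes, which initiate the membrane, 0 were called and 0 had an unadjusted p under 0.05 by either tool, with log2 differences of -0.10 (Atg2b) to 0.09 (Atg2a), a pair of lipid transfer proteins. Of the 15 receptors that bind ATG8-type proteins, 0 were called, with 3 at an unadjusted p under 0.05 in edgeR and 2 in DESeq2, from -0.18 for Wdfy3, a scaffold of selective autophagy, to 0.09 for Tex264, a receptor for the endoplasmic reticulum. Of the 14 fusion genes, 0 were called, with 1 at an unadjusted p under 0.05 in each tool, from -0.14 for Epg5, a tether, to 0.13 for Vps16, a tethering subunit.

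Members did not vary as 1 group between forebrain libraries. Deviations of log2(CPM + 0.5) from the group means were compared over the 13 libraries, which share tissue and processing. Pearson's r with Atg7 ran from -0.60 for Atg12 and -0.49 for Atg5 to 0.26 for Atg10 and 0.41 for Map1lc3a. After a correction for GC content and length these were -0.51 for Atg12, -0.41 for Atg5, 0.48 for Atg10 and 0.29 for Map1lc3a, so Atg10 then had the highest value. Among the 45 pairs, the highest r before correction was that of Atg5 and Atg12, the partners of 1 conjugate, at 0.66. It was 0.45 after that correction. The next pairs in order were Atg5 with Map1lc3b (0.61, corrected 0.46), Atg5 with Atg16l1 (0.59, corrected 0.07), Map1lc3a with Gabarapl1 (0.57, corrected -0.41), Atg12 with Map1lc3b (0.53, corrected 0.51) and Atg12 with Atg16l1 (0.51, corrected 0.50). The correction thus moved the values of Atg5 with Atg16l1 and of Map1lc3a with Gabarapl1 most among these 6 pairs. After it, the order of the 45 pairs was another. Atg3 with Map1lc3a was highest (0.58, uncorrected 0.10), followed by Atg16l1 with Map1lc3b (0.52, uncorrected 0.47), and several further pairs also exceeded Atg5 with Atg12. The values were not set beside those of other gene pairs. Log2 differences over all genes had a Spearman rho of 0.359 with GC content, and the transcripts of Map1lc3a and Atg5 contain 63.1% and 44.6% GC.

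The genes most like Atg7 by Pearson's r, of 12107 genes with a mean of at least 5 CPM, were Sema4b, Zfp575, Pigt, Tmem201 and Rhbdd1. For Sema4b, a semaphorin gene, r was 0.85 and Spearman's rho 0.89, and r was 0.90 without the 2 libraries in which Atg7 was farthest from its median (control 2 and control 5). For Zfp575, r was 0.85 and rho 0.75, and r was 0.61 without them. Pigt, a subunit of the GPI transamidase, had r = 0.81 (0.73 without them), Tmem201 r = 0.80 (0.42) and Rhbdd1 r = 0.80 (0.64). These 5 are the extremes of many genes over 13 libraries and describe these libraries.

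In sorted microglia, Gabarapl1 was the member that differed most between the libraries. Each genotype had 1 pooled library, so no replicate checks the difference, no p-value is given, and intervals cover counting error only. Gabarapl1 had 1560 UMIs in cKO and 220 UMIs in control cells, that is 40.9 CPM (38.9 to 43.0) in cKO and 24.2 CPM (21.1 to 27.6) in control cells. The ratio, cKO over control, was 1.69 (95% interval 1.47 to 1.95). It was the single member past 1.5-fold of the 9 with at least 20 CPM in 1 library, where 3.14% of 6744 measured genes were past that limit, 1.79% higher and 1.35% lower in cKO. Over 7 alternative cell sets and scalings its ratio stayed between 1.54 and 1.83.

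Depth differed with genotype, so each cell was also thinned to 1000 UMIs (7410 cKO and 5637 control cells). Gabarapl1 had a UMI in 3.87% of thinned cKO cells (95% Clopper-Pearson interval 3.44 to 4.34) and in 2.16% of thinned control cells (1.80 to 2.58), against 17.4% and 3.36% unthinned. Cells of 1500 to 3000 UMIs numbered 484 in cKO and 2257 in control. That range lies below the cKO median of 4836.5 UMIs and above the control median of 1391.5 UMIs. In these cells the ratio of Gabarapl1 was 1.77 (1.25 to 2.47). Within cluster 0 it was 1.50 (0.931 to 2.58) and within cluster 1 it was 1.47 (0.893 to 2.31), with 17 control UMIs in cluster 0 and 21 cKO UMIs in cluster 1, so neither within-cluster interval excluded 1.

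The other ATG8-type genes differed less. Gabarapl2 had a ratio of 1.16 (1.09 to 1.23) and Map1lc3b of 1.11 (1.04 to 1.18). In cells of 1500 to 3000 UMIs both ratios were below 1, at 0.825 (0.689 to 0.982) and 0.905 (0.756 to 1.08) for 484 cKO and 2257 control cells. With every cell thinned to 1000 UMIs the ratios were above 1, at 1.13 (1.03 to 1.23) for Gabarapl2 and 1.07 (0.981 to 1.18) for Map1lc3b. Within clusters 0 and 1, Gabarapl2 had ratios of 1.43 (1.14 to 1.82) and 1.30 (1.07 to 1.57). Why the cells of 1500 to 3000 UMIs gave another direction was not tested. Map1lc3a, at 93.9 CPM in cKO and 94.9 CPM in control cells, had a ratio of 0.990 (0.919 to 1.07). In the cells of 1500 to 3000 UMIs its ratio was 0.737 (0.577 to 0.934). Gabarap, the branch's namesake and not a member, had 384 CPM in cKO and 377 CPM in control cells (ratio 1.02, 0.980 to 1.06).

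Atg7 in microglia was below the 20 CPM limit in both libraries. It had 662 UMIs in cKO and 144 UMIs in control cells, a ratio of 1.10 (0.913 to 1.32). After thinning, 1.71% of cKO cells (1.43 to 2.04) and 1.70% of control cells (1.38 to 2.08) had a UMI of Atg7. In cells of 1500 to 3000 UMIs the values were 35 UMIs in cKO and 56 UMIs in control cells, a ratio of 2.15 (1.37 to 3.34), while the ratio was 0.964 in the lowest of the alternatives. A 3' tag reports any transcript that keeps its 3' end, so these values do not check the deletion.

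The remaining enzymes and complex members had ratios between 0.912 and 1.06. Atg3 had 74.0 CPM in cKO and 81.1 CPM in control cells (ratio 0.912, 0.841 to 0.990). Its ratio was 0.895 (0.790 to 1.01) with thinned cells and 0.930 (0.811 to 1.07) in cells with at least 1000 genes, and these intervals held 1. The interval lay below 1 in the other alternatives. Their ratios were 0.691 in cells of 1500 to 3000 UMIs, 0.894 with all barcodes and 0.888 with all cells past the filters. With the choroid plexus cluster kept the ratio was 0.909, and with median-ratio scaling 0.884. Over all microglia-like cells, Atg3 was the single member whose interval lay below 1, which held for 16.4% of measured genes. There, 3 members had intervals above 1, against 28.3% of measured genes. Atg5 had a ratio of 1.06 (0.981 to 1.15), Atg10 of 0.980 (0.847 to 1.14), Atg12 of 0.986 (0.887 to 1.10) and Atg16l1 of 0.925 (0.825 to 1.04). Intervals of these 4 genes held 1, and directions turned with the cells used: thinned cells gave 0.953 for Atg5, 1.06 for Atg16l1 and 1.04 for Atg10, and cells of 1500 to 3000 UMIs gave 1.16 for Atg12, 1.10 for Atg16l1 and 1.02 for Atg10, and all barcodes gave 1.01 for Atg16l1. The median log2 ratio of the 9 measured members was -0.01, against 0.05 over all measured genes.

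**Figure D4:**
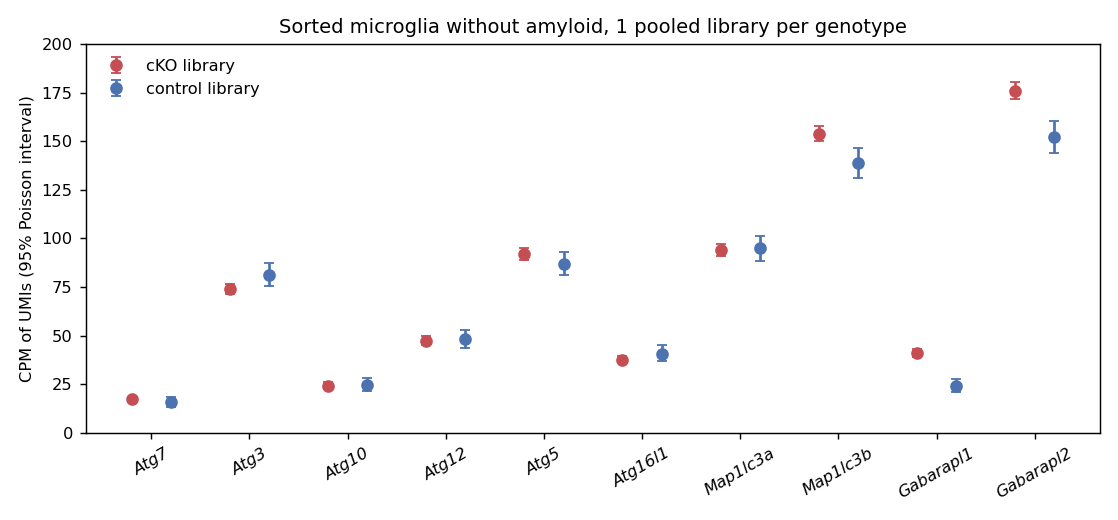
Level of each member in microglia-like cells in CPM of UMIs, cKO library left and control library right, with 95% Poisson intervals that cover counting error only. Gabarapl1 is 40.9 CPM in cKO and 24.2 CPM in control cells.

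**Figure D5:**
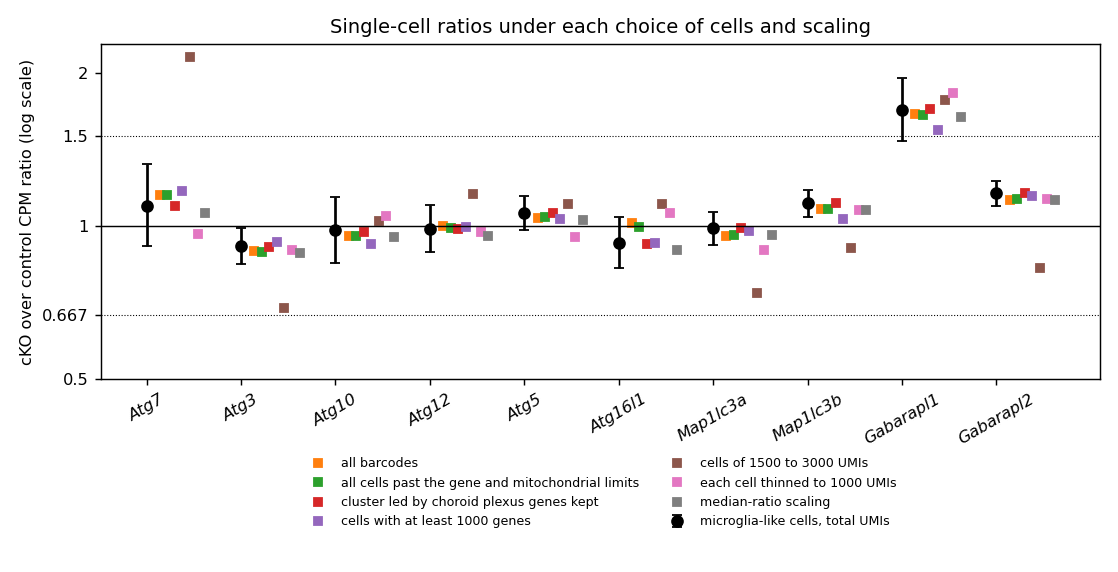
Ratio of each member in microglia, cKO over control (log axis), for all microglia-like cells (black points with 95% counting intervals) and for the alternative cell sets and scalings (squares). Gabarapl1 stays between 1.54 and 1.83, and Atg7 reaches 2.15 in cells of 1500 to 3000 UMIs.

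In the other lists of autophagy genes, 1 gene with at least 20 CPM in 1 library passed 1.5-fold in microglia. Of all genes measured at that limit, 1.79% were that much higher in cKO. Sqstm1, which encodes the receptor p62 that binds ATG8-type proteins and is itself degraded by autophagy, had 154 CPM in cKO and 101 CPM in control cells, a ratio of 1.53 (1.43 to 1.64). Under the alternatives its ratio ran from 1.36 to 1.53 and was below the limit in all but the one that kept the choroid plexus cluster, for example 1.48 with median-ratio scaling and 1.41 with thinned cells. It was 1 of 13 receptors with at least 20 CPM, whose median log2 ratio was 0.19. Of 4 measured other conjugation genes, 12 upstream genes and 11 fusion genes, 0 were past 1.5-fold, with median log2 ratios of 0.08, 0.05 and 0.04. Below 20 CPM, the receptor gene Optn had 164 UMIs in cKO and 20 in control cells (ratio 1.95, 1.22 to 3.28). The fusion gene Plekhm1 had 475 and 65 UMIs (1.74, 1.34 to 2.29), and the upstream gene Atg9b 4 and 0. In the forebrain, Sqstm1 was 459 ± 39.4 CPM in cKO and 446 ± 12.5 CPM in control libraries (SD, n = 7 and n = 6; edgeR adjusted p = 0.851).

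A further cluster of 1353 cKO and 4 control cells, with a median of 1126 UMIs per cKO cell, was left unnamed and out of these values. Against microglia-like cells of the same cKO library, Atg7 was at 36.2 against 17.4 CPM there (ratio 2.09, 1.58 to 2.70) and Atg16l1 at 108 against 37.8 CPM (2.86, 2.44 to 3.33). Atg3, Atg5 and Atg10 were lower there, at ratios of 0.520 (0.402 to 0.663), 0.580 (0.467 to 0.712) and 0.683 (0.455 to 0.988), and so were the 4 ATG8-type members, at 0.306 to 0.418. Atg12 was at 1.22 (0.992 to 1.50). Of 7521 genes measured in this contrast, 33.3% were at least 1.5-fold higher and 28.9% at least 1.5-fold lower there.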

How the data were processed

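The authors deposited whole-number counts for both assays. For the bulk counts per Ensembl gene, the submitters' processing notes name the build mm10, the aligner HISAT2 2.0.5 and the counter featureCounts 1.5.0-p3. The RNA was poly-A selected and came from forebrains without cerebellum, per the labels' protocols. Per the file headers, the single-cell UMI counts are output of Cell Ranger 6.1.0. The sorted cells were CD11b-high and CD45-low, and the kit was 10x 3', per the labels. Strand setting and annotation release of the bulk counting were not given in the sources used here.

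Groups were taken from the genotype labels. Bulk counts were filtered with filterByExpr, scaled with TMM and tested two-sided with edgeR 4.0.16 (robust quasi-likelihood, R 4.3.3) on genotype, with Benjamini-Hochberg adjustment over 16956 genes and a threshold of 0.05. DESeq2 1.42.0 was an alternative. The biological coefficient of variation was 10.0%, and no pair of libraries agreed within sampling noise (chi-square per degree of freedom at least 2.75). Cells with at least 500 genes and at most 10% mitochondrial UMIs (8874 cKO, 6243 control) were clustered with scanpy 1.11.5 (2000 variable genes, 30 components, 15 neighbours, Leiden resolution 0.5). No doublet caller was applied, so doublets remain. A cluster was called microglia-like with at least 3 microglia markers in 25% of its cells. Exceptions were clusters whose leading genes marked another cell type or whose UMIs were low. Low was judged against the median of each cell's own library, which left out 1353 cKO and 4 control cells. All clusters had 17 or 18 of the markers, so the marker count excluded none. A choroid plexus marker list, chosen after the data were seen, left 1 cluster of 50 cells unnamed. UMIs were summed per library, with exact Poisson intervals, exact intervals of ratios and Clopper-Pearson intervals of shares, all at 95%.

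All 10 members were described. From the other lists, the genes with the highest and lowest bulk difference and those of at least 20 CPM past 1.5-fold in microglia were named. Gabarap, Sqstm1 in the forebrain, Optn, Plekhm1, Atg9b and single cell type markers were added after their values were seen. The members and lists were chosen with earlier results of these data known. Gene positions are from GENCODE M21 (GRCm38). Both procedures were tested on simulated data.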

Additional observations from a re-analysis of the deposited data

Results flagged for a closer look

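In 20 groups of libraries (10 members in cKO and in control forebrains), 2 held a library far from the others. Chance gives such a library in about 1 in 20 groups. Map1lc3a was at 184 CPM in cKO library 5, and the next highest cKO library was at 146 CPM. Atg10 was at 12.7 CPM in control library 2, and the next highest control library was at 9.62 CPM.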

How the results depend on the processing

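In the forebrain, 0 members were called in every fit run, the 13 that left out 1 library each included. Over all genes, 9 were higher and 47 lower in cKO. The higher count was 23 with no filter on low counts and 23 in DESeq2, and 3 to 23 with 1 library left out. The lower count was 30 to 50 with 1 library left out. Leaving out cKO 1, 2, 6 or 7 or control 2, 3, 4, 5 or 6 moved the higher count by over 1.5 times, and cKO 3, cKO 6 or control 5 the lower count. The labels do not say that replicate numbers pair the libraries. Same-numbered deviations had r of -0.322 to 0.171, and 2 of 6 numbers correlated best with their own, which cannot decide whether libraries share a litter or batch. With the replicate number as a block, 1 gene was higher and 21 lower, and Atg7 was at -0.005. Members near 0 changed sign without a call. With a GC and length correction, Atg7 was at -0.003, Atg5 at 0.017 and Gabarapl1 at -0.013, and with the replicate block as well at -0.010, 0.005 and -0.022. The same correction moved Map1lc3a to 0.005, Atg16l1 to 0.154, Atg3 to 0.100, Atg12 to -0.032, Atg10 to -0.008 and Gabarapl2 to 0.018, against 0.096, 0.095, 0.043, -0.083, -0.064 and 0.000 without it. With 1 library left out, Atg7 ran from -0.028 to 0.047, Atg5 from -0.049 to 0.053 and Atg10 from -0.103 to 0.036. The cause was not tested. In microglia, cells of 1500 to 3000 UMIs gave 549 genes past 1.5-fold higher and 223 lower, against 121 and 91, and 2 members higher, Atg7 beside Gabarapl1. Keeping the choroid plexus cluster was added after the data were seen and gave a Gabarapl1 ratio of 1.70. The alternatives for Sqstm1 were also added then. With 144 control UMIs, Atg7 ratios have wide intervals.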
